A study of Rattus norvegicus with 9 samples.

Results

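Pericytes and vascular smooth muscle, the mural cells that wrap small blood vessels, were rare among the cells of the tibial osteotomy site: 84 of 114232 cells kept, or 0.0735%. The members were chosen by their own UMI counts, that is, by transcripts counted once each through a molecular identifier. A member carried at least 2 UMIs of Rgs5, a regulator of G protein signaling in mural cells, and at least 1 UMI of Pdgfrb, the platelet-derived growth factor receptor of mural cells. It also held at most 1 UMI of the endothelial genes Pecam1 and Cdh5 together and at least 2000 UMIs in all, after barcodes with under 200 genes or over 20% mitochondrial UMIs had been removed. The levels of these 4 genes are therefore no result. Every other gene of the members was read from the cells so chosen, so that their profile is given as a description, with no test.

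Mural cells sit on the outer face of the endothelium and share a basement membrane with it. Endothelial cells recruit them with platelet-derived growth factor B, which acts on Pdgfrb, and instruct them through Notch ligands, which act on Notch3. Pericytes lie along capillaries, smooth muscle cells surround arterioles, and both adjust vessel diameter through actin, myosin and ion channels. In bone, perivascular cells lie close to the stromal cells that make matrix and support blood formation.

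The cells came from Sprague-Dawley rats of 6 to 8 weeks with a circular osteotomy of 3 mm in the tibia and a wound of 4 mm on the dorsum of the foot, which all groups shared. The TO libraries came from osteotomy alone, on day 2 at 0 h and 4 h and on day 4 at 4 h and 24 h. The TOE libraries came from rats that also received radial extracorporeal shock waves (rESWT) over the osteotomy site, on day 2 at 4 h and 24 h and on day 4 at 4 h and 24 h. Per the paper, shock waves were given on days 2 and 4 after injury, and hours count from the shock wave of the named day. The 24 h sample of day 2 was thus taken on day 3 after injury. Each of the 8 conditions was 1 library of 10x Genomics 3' single-cell RNA sequencing, and the number of rats in a library is not given in the sources used here. TO 2d 24h was not analysed here, and no uninjured bone was among the groups. The libraries held 12451 to 17187 barcodes and 95954800 to 144146202 UMIs. The members had a median of 33039 UMIs (4624 to 90951) against 5003 for all cells kept, which had no minimum of 2000 UMIs. The stromal and endothelial cells set beside them below had medians of 39513 and 17721 UMIs. The members held 2715680 UMIs together, which is the depth behind the levels below. Of 112677 distinct barcodes, 1541 occurred in more than 1 library; 3 of these belonged to members, and none of the 3 was a member in both of its libraries.

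All 7 markers of the label were found. Besides Rgs5 and Pdgfrb, the members carried Igfbp7 in 84, Thy1 in 84, Col4a1 in 83, Mgp in 81 and Acta2 in 76 of 84 cells. Droplets also pick up free RNA, so the same shares were taken in 35317 B cells, which should lack mural genes and had a median of 5413 UMIs. There Igfbp7 was found in 2.06%, Col4a1 in 1.4%, Mgp in 1.5% and Acta2 in 0.739% of cells. With every cell thinned to 2000 UMIs, the expected shares were 93.9% against 0.522% for Igfbp7, 93.1% against 0.391% for Mgp and 55.6% against 0.195% for Acta2. Thy1, a surface protein of many lineages, was found in 58.7% of the B cells as well, and thinned to 2000 UMIs the shares were 90.2% against 29.8%. The cells nearest in type carried some of these markers too. Thinned likewise, the expected shares were 40.4% for Igfbp7, 20.7% for Col4a1, 12.5% for Mgp and 22.9% for Acta2 in 303 stromal cells with Pdgfra. In 382 endothelial cells they were 69.7%, 67.8%, 6.29% and 1.03%, in the same order. Each of these 4 markers thus had its highest share in the members, where Col4a1 reached 94.5%. The leukocyte gene Ptprc, thinned likewise, was expected in 22.9% of the endothelial cells, 6.99% of the stromal cells and 6.25% of the members. The part of other cells in the endothelial shares was not tested.

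Markers of other cells were looked for next. Cdh5, which the rule limited, and Cldn5, both endothelial junction genes, were at 0 in all 84 members, and the 12 endothelial markers summed to 139 to 250.2 CPM over the libraries with 5 or more members, against 116 over all cells kept and 32.2 in stromal cells. CPM is the number of UMIs of a gene per 1000000 UMIs of the summed cells. Pdgfra, the receptor that marks fibroblasts, had 5 UMIs in all, but the 8 fibroblast markers summed to 206 to 1146 CPM, against 145 over all cells kept and 3300.3 in stromal cells. The 6 markers of marrow reticular and adipocyte cells summed to 392 to 2629 CPM. The highest value, in TO 2d 0h, rested on 1 cell with 620 Cxcl12 UMIs and was 344 without it. The list stood at 27.2 over all cells kept, 232 in stromal and 537 in endothelial cells. The neutrophil genes S100a8 and S100a9 were found in every member, and the 6 neutrophil markers summed to 1146 to 2689 CPM against 32441 over all cells kept. Most UMIs of the B-cell list were those of Ebf1, which mural cells express as well. The other 4 B-cell markers summed to 14.5 to 118 CPM against 1522, and the 6 erythroid markers to 582 to 1151 against 10467. Of 6 skeletal muscle markers, 5 were at 0. The Schwann cell markers summed to 21.8 to 73.9 CPM against 3.08 over all cells kept and 22.3 in stromal cells. Ptprc, the pan-leukocyte gene, was found in 42 members with 95 UMIs in all. Ptprc or the B-cell gene Cd79a was found in 66 of the 84, at a median depth of 35191 UMIs against 20344 in the other 18. Those 18 cells stood at 502 CPM of Notch3, 539 of Abcc9 and 298 of Myh11, against 363, 344 and 142 in the 66. The libraries were unevenly mixed in these sets: TO 2d 4h and TO 4d 4h gave 6 and 5 of the 18, whereas TOE 2d 24h gave 26 of the 66. The part of free RNA in these levels was not tested.

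The members carried the Notch receptor known from mural cells. Notch3 stood at 383 CPM (360.4 to 407), with the 95% Poisson interval in brackets here and below. A pair of groups of cells from the same libraries served as comparators, namely 303 Pdgfra+ stromal cells and 382 endothelial cells, and there Notch3 stood at 6.21 and 1.17 CPM. Of the 8 libraries, 5 held 5 or more members and gave levels of their own. In the order TO 2d 0h, TO 2d 4h, TO 4d 4h, TOE 2d 24h and TOE 4d 4h, which is kept below, Notch3 reached 274, 558, 594, 187 and 643 CPM. Every library lay above the highest stromal one at 25.9 CPM, and the lowest of the 5 was TOE 2d 24h.

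Notch receptors act through genes of the Hes and Hey families, which code for transcriptional repressors. Past 4-fold and with all 5 libraries on the same side, 4 of 5 target genes were higher than in stromal cells, beside 2.26% of all genes. Against endothelial cells 2 were higher, beside 4.5%. None was lower than in stromal or endothelial cells, beside 2.02% and 7.11% of all genes. Heyl, held to be a target of Notch3 in mural cells, stood at 123 CPM (110.5 to 137) against 6.99 in stromal and 0.649 CPM in endothelial cells. Hey2 stood at 61.5 CPM (52.5 to 71.6) against 6.99 and 0.649. Nrarp, a feedback inhibitor of Notch, was shared with the endothelium, at 116 against 133 CPM, and stood at 4.07 in stromal cells. Hes1, which responds to many signals, differed least, at 152, 99.3 and 125 CPM in the order pericytes, stromal and endothelial cells. On the receiving side the members thus carried Notch3, while the endothelial ligand Dll4 was at 0 UMIs in them and at 78.5 CPM in endothelial cells. Jag1, a Notch ligand that mural cells can make themselves, stood at 104 CPM against 44.9 in endothelial cells.

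The promoters of Hes1 and Hey2 are shown because their letters hold the core motif of RBPJ, the DNA-binding partner of Notch. In the 250 bases before the start of transcription, the letters TGGGAA (or TTCCCA, the same motif on the other strand) occurred at 2 places in each gene. The stretches come from RefSeq on the build GRCr8, with the motif in capitals. The Hes1 stretch is chr11:84213129-84213188 on the minus strand, 143 to 84 bases before the start, and the Hey2 stretch is chr1:28640905-28641065 on the plus strand, 195 to 35 bases before the start.
Hes1: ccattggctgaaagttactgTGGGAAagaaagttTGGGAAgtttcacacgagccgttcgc
Hey2: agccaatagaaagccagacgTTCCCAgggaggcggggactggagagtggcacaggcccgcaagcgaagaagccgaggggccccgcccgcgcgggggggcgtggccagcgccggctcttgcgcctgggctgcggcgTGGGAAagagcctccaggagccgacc
At least 1 match occurred in 22.1% of 33469 promoters of the same length and at least 2 in 2.71%. The promoters of Heyl, Nrarp and Notch3 held these letters at 0 places in this window. A match is a description of the letters, and no binding was measured.

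The genes named next, known from pericytes elsewhere, stood above both comparators in the summed cells, by differing amounts. Abcc9 and Kcnj8, the subunits of the potassium channel of mural cells that opens when ATP is low, stood at 373 CPM (350.4 to 397) and 72.5 CPM (62.8 to 83.4). Stromal cells had 6.28 and 1.71 CPM, and endothelial cells 72.7 and 34.3. By library Abcc9 reached 355, 558, 523, 187 and 475 CPM, without overlap with the stromal libraries. Higd1b, a mitochondrial gene of pericytes, stood at 90.6 CPM (79.6 to 103) against 0.143 CPM in stromal cells and 0 UMIs in endothelial cells. Ndufa4l2, another mitochondrial gene, stood at 367 against 22.5 and 2.86 CPM. Cspg4, which codes for the NG2 proteoglycan of the pericyte surface, stood at 136 against 24.9 and 1.95. Mcam, the adhesion molecule CD146, was found in both vessel cell types, at 260.3 CPM in pericytes, 177 in endothelial and 3.71 in stromal cells. Ebf1, a transcription factor of B cells and of mural cells, was high everywhere, at 2093, 892 and 1349 CPM, and was found in 99.97% of the B cells. Thinned to 2000 UMIs, Ebf1 was expected in 92% of members and Cd79a in 9.81%.

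Over all genes, 11958 were measured against stromal cells and 11635 against endothelial cells. A gene was counted as higher or lower where the summed cells differed by more than 4-fold and all 5 libraries lay on the same side. Against stromal cells 270 genes were higher (2.26%) and 241 lower (2.02%), with a median log2 ratio of 0.12. Against endothelial cells 523 were higher (4.5%) and 827 lower (7.11%), with a median of -0.17. These shares over all genes are the background for the counts by list below. The endothelial cells carried 3155 CPM of 6 monocyte and macrophage markers, against 627 in the members and 493 in stromal cells. The part of other cells in the endothelial comparison was not tested. Of 23 genes on a list of mural identity, 19 were measured, and 15 were higher than in stromal cells, 14 higher than in endothelial cells and none lower. Since the cells were chosen by the UMIs of 2 genes of that list, these counts describe the choice. The heat map of levels shows the genes by role.

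**Figure D1:**
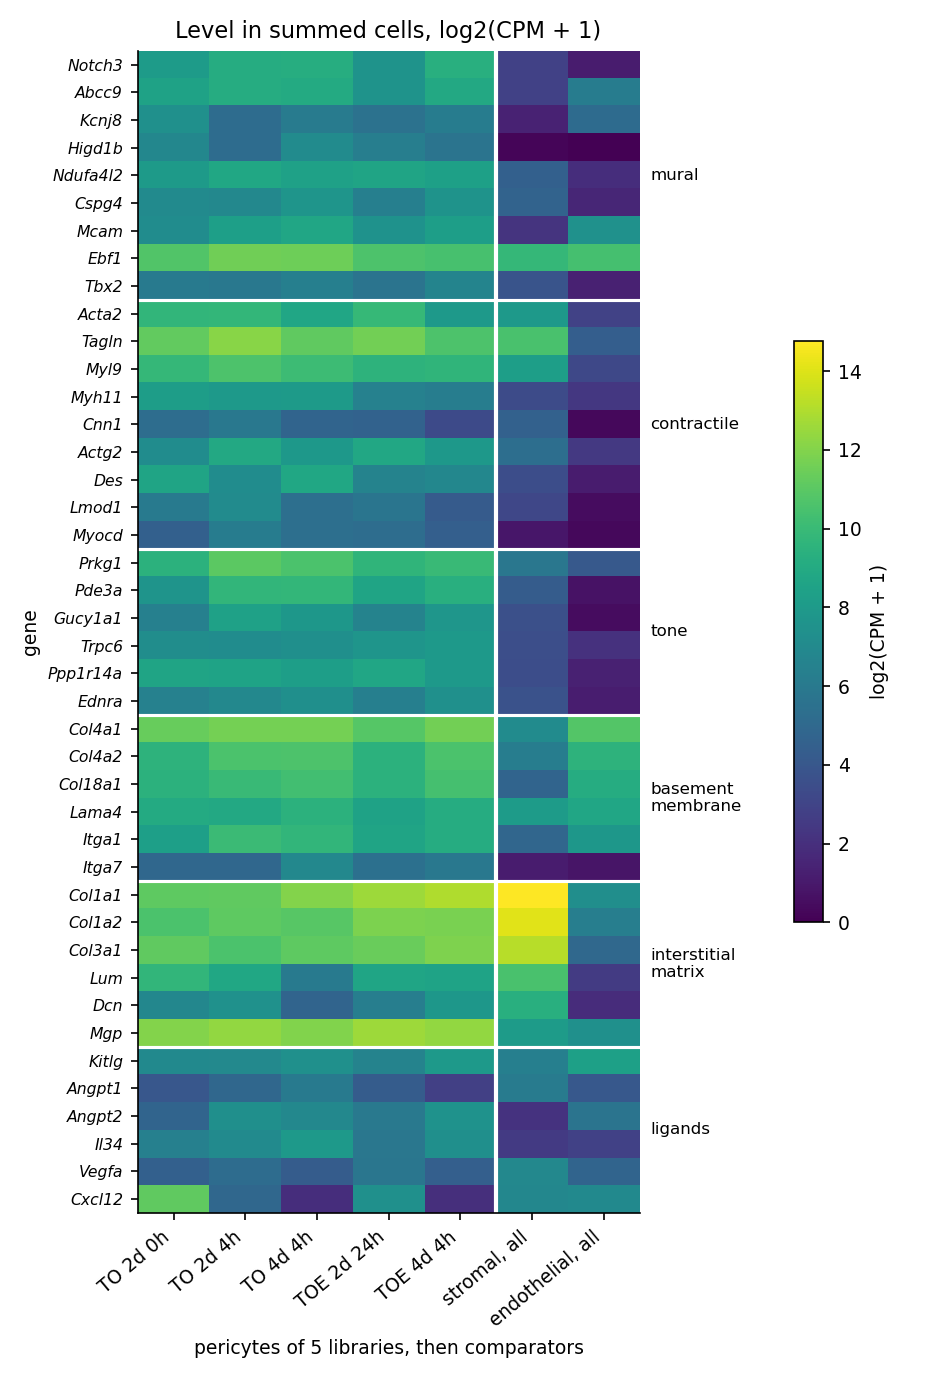
Levels of genes by role as log2(CPM + 1), 1 row per gene, in the summed pericytes of the 5 libraries with 5 or more members and then in stromal and endothelial cells. Notch3 reads 187 to 643 CPM in the pericyte columns against 6.21 and 1.17 in the comparators, and Col1a1 is highest in the stromal column at 27742 CPM.

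The 15 genes with the largest ratios to stromal cells were of several kinds. Or51e1, an odorant receptor, had 329 UMIs in 52 members and 0 in stromal cells. Its level of 121 CPM (108 to 135) was at least 566-fold higher than the limit of 3 counts that 0 UMIs allow in the summed stromal cells. By library it reached 62.9, 145, 252, 81.4 and 50.8 CPM, and it was found in 0.0255% of B cells. Gucy1a2, a subunit of the guanylate cyclase that senses nitric oxide, stood at 258 CPM (239 to 278) against 0.571 in stromal and 0.389 CPM in endothelial cells. Also among the 15 were Spink8, Higd1b, Pmfbp1, Sgip1, the sodium channel gene Scn3a, the neurotrophin receptor gene Ntrk3 and Atp1b2, a subunit of the sodium pump. Their levels ran from 19.1 to 107 CPM in pericytes and stood at 0 to 0.571 in stromal cells. Ntrk3 was uneven over the libraries, from 14.8 to 515 CPM.

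The other 6 of the 15 were shared with the endothelium. They were Bcam, a laminin receptor, Gpr4, a receptor that senses protons, Tinagl1, a protein of the basement membrane, Esam, an adhesion molecule, Adgrf5, an adhesion receptor, and Gja4, which codes for a connexin of vessels. Esam stood at 75.5 CPM in pericytes and 249.9 in endothelial cells, and Gja4 at 61.1 and 108. Adgrf5 reached 500.3 CPM in TO 2d 4h and 26.9 to 94.9 in the other libraries. The part of transcripts from endothelial cells in these levels was not tested.

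The 10 genes with the lowest ratios to stromal cells included a pair known from bone. Bglap, which codes for the osteoblast protein osteocalcin, stood at 56 against 4394 CPM, and was found in 40% of B cells. Tnn, a tenascin of bone, stood at 10.7 against 917 CPM. Car3, a carbonic anhydrase, Thbs4 and Mfap4, both matrix genes, and Hs6st2, Nrk and Sncaip were at 0 UMIs in the members and at 20.2 to 126 CPM in stromal cells. C1qtnf3 and Cpz had 2 UMIs each. Against endothelial cells, the highest ratios included those of Daam2, Higd1b, Dclk1, C7, Pde3a, Wnt5a, Agtr1a, Cd248, Prrx1, Gucy1a2, Kcnip1, Tbx15, Synpo2 and Has2. Several of them were stromal genes at large: Prrx1, a transcription factor of limb mesenchyme, stood at 752 CPM in pericytes, 565 in stromal and 1.17 in endothelial cells. The lowest were Adgrl4, Cldn5, Gpihbp1, Sox17, Nos3, Cyyr1, F11r, Cd34, Cgnl1 and Spns2, genes of the endothelium. Of these, Nos3, the nitric oxide synthase of vessels, had 0 UMIs in pericytes and 96.3 CPM in endothelial cells.

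The members were unevenly spread over the libraries. TOE 2d 24h held 28 of the 84 and TO 4d 4h held 20. Another 12 came from TOE 4d 4h, whereas TO 2d 0h gave 8 and TO 2d 4h gave 7. The other 3 libraries held under 5 each, with 4 for TOE 2d 4h, 3 for TOE 4d 24h and 2 for TO 4d 24h. As a share of the cells kept, TOE 2d 24h was highest at 0.194% (exact 95% interval 0.129 to 0.280) and TO 4d 4h next at 0.157% (0.0960 to 0.242). TO 4d 24h was lowest at 0.0142% (0.00172 to 0.0512). The intervals of TOE 2d 24h and TO 4d 4h overlapped each other, and that of TO 4d 24h lay below both. The libraries with the most members also held many endothelial cells, with 99 for TOE 2d 24h, 71 for TOE 4d 4h and 69 for TO 4d 4h against 15 to 36 elsewhere. Per 100 endothelial cells, the members ran from 7.14 (TO 4d 24h) to 29.0 (TO 4d 4h). Per 100 stromal cells they ran from 18.2 (TO 4d 24h) to 70 (TO 2d 4h), and TOE 2d 24h was next to lowest at 22.6.

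**Figure D2:**
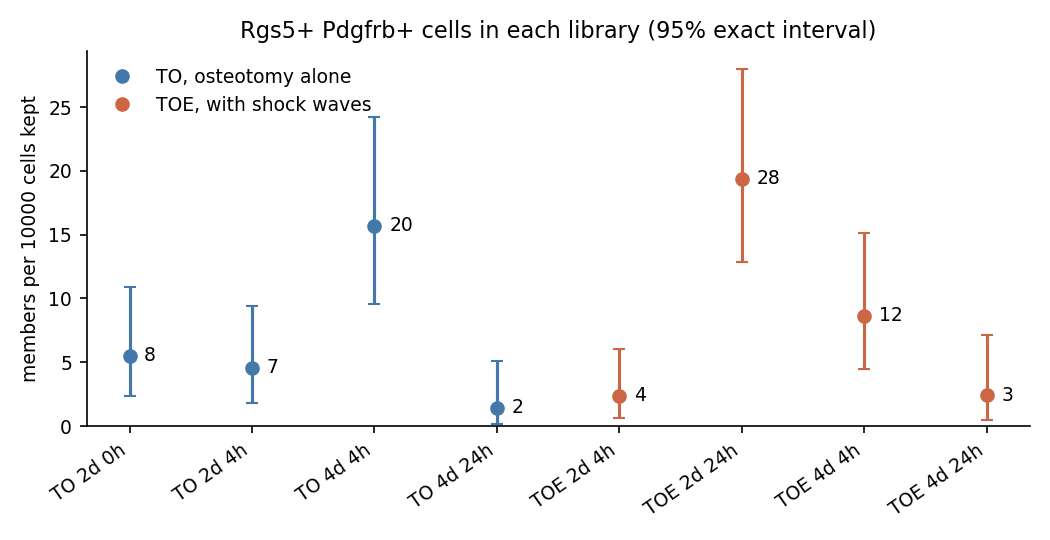
Members per 10000 cells kept in each of the 8 libraries, with exact 95% intervals that cover counting error only. TOE 2d 24h and TO 4d 4h stand highest, with 28 and 20 members, and TO 4d 24h lowest with 2.

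Whether shock waves went with more or fewer mural cells was asked in the 3 pairs of matched day and hour. For 2d 4h the TOE share divided by the TO share gave 0.517 (0.111 to 2.03). The quotient was 0.551 (0.246 to 1.18) for 4d 4h, and for 4d 24h it reached 1.72 (0.197 to 20.5). The last rested on 3 TOE and 2 TO members. It was 1.14 with no endothelial UMI allowed and 3.43 with at least 3 Rgs5 UMIs. The interval of each pair included 1. These intervals cover the counting of cells only and leave out variation between libraries. With 1 library on each side, they cannot decide whether the treatments differ. Over the 18 members without a Ptprc or Cd79a UMI the quotient at 2d 4h was 0 (0 to 0.768), from 6 cells in TO and 0 in TOE, and the other intervals still included 1. That filter fell unevenly on the libraries. Cd79a was found in 0 of 7 members of TO 2d 4h, against 60% to 78.6% in the other libraries with 5 or more members. The part of free leukocyte RNA in this quotient was not tested. Per endothelial cell the ratios were 0.623, 0.583 and 2.80. Per Pdgfra+ stromal cell, a denominator added after seeing the data, they were 0.816 (0.175 to 3.21), 1.45 (0.645 to 3.11) and 1.83 (0.210 to 22.0), so that the direction at 4d 4h turned. With libraries as samples, the mean log2 share was 0.18 higher in the 4 TOE than in the 4 TO libraries (exact permutation test, two-sided, p = 0.886; adjusted over 2 contrasts, 0.886). The direction depended on the cells and libraries used: the difference was -1.32 without members with a Ptprc or Cd79a UMI, and -0.35, -0.39 and -0.01 without TO 4d 24h, TOE 2d 24h and TOE 4d 4h. Over the 3 matched pairs, an alternative added after seeing the data, the mean difference was -0.35 in log2, with 1 of 3 pairs above 0 (exact permutation test over the signs of the pairs, two-sided, p = 0.5, where the smallest possible is 0.25). The mean of the 4 libraries of 4 h was 0.42 higher than that of the others (exact permutation test, two-sided, p = 0.657; adjusted 0.886), and turned below 0 without TO 4d 4h or TO 4d 24h. The smallest p that 4 libraries against 4 allow is 0.0286, and libraries of different day and hour were taken as replicates in it.

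Contractile genes were among those that stood above the endothelium. Of 22 genes on the list, 18 were measured, of which 15 were higher than in endothelial cells and 7 higher than in stromal cells. Tagln, which codes for the actin-binding protein transgelin, led at 2629 CPM (2568 to 2691) against 1476 in stromal and 20.4 CPM in endothelial cells. Acta2, smooth muscle actin, stood at 731 CPM (699 to 764) against 247 and 6.49. By library Acta2 reached 824, 870, 427, 957 and 257 CPM, so that TOE 4d 4h was lowest and TO 4d 4h next. In stromal libraries it ran from 42.7 to 432 CPM, which overlapped the pericytes.

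The 7 genes higher than in stromal cells included several known from mature smooth muscle. Myh11, the smooth muscle myosin heavy chain, stood at 165 CPM (150 to 181) against 9.49 in stromal and 4.28 CPM in endothelial cells, and by library at 299, 254, 263, 89.7 and 74.8 CPM. In TO 2d 0h most Myh11 UMIs came from 2 cells, with 32 and 37. Des, which codes for the intermediate filament desmin, stood at 215 CPM (198 to 234) against 10.3 and 1.17. Actg2, the actin of enteric and some vascular muscle, stood at 322 against 39.5 and 4.41 CPM, and Myocd, the coactivator that turns on smooth muscle genes, at 36.1 against 0.856 and 0.26. Sncg, Lmod1 and Synpo2 completed the 7. Tpm1, Tpm2, Cald1 and Myl9, general genes of actin and myosin, were within 4-fold of stromal cells. So was Cnn1, the smooth muscle gene of calponin, at 25.4 against 22.8 CPM. B cells carried Myh11 in 3.52% of cells against 66.7% of members. Thinned to 2000 UMIs, the expected shares were 0.855% and 22.8%.

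On the list of vessel tone, 16 of 26 genes measured were higher than in stromal cells and 17 of 25 higher than in endothelial cells. It includes the path from nitric oxide, which endothelial cells make, to relaxation. Gucy1a1 and Gucy1b1, the subunits of the nitric oxide sensor, stood at 168 and 147 CPM against 11.1 and 6.14 in stromal cells. Prkg1, the kinase that cyclic GMP activates, stood at 1089 CPM (1050 to 1129) against 57.7 in stromal and 16.1 in endothelial cells. Pde3a and Pde5a, which break down cyclic nucleotides, stood at 549 and 182 CPM against 18.9 and 16.6 in stromal cells. By library Pde3a reached 199.6, 834, 881, 391 and 639.9 CPM, above the highest stromal library at 35.6.

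On the side of contraction, Ednra, the endothelin receptor of muscle, stood at 119 CPM against 12.4 in stromal and 1.3 in endothelial cells, while its ligand gene Edn1 had 1 UMI in the members and stood at 18.2 CPM in the endothelium. Trpc6, a calcium channel, stood at 187 against 10.5 and 3.25, and Ppp1r14a, an inhibitor of myosin phosphatase, at 352 against 10.3 and 1.56. Cacna1c, the calcium channel of voltage-dependent contraction, was higher than in endothelial cells, at 401 against 4.67, but within 4-fold of stromal cells at 177. Adra1a, an adrenergic receptor, ran from 7.39 to 196 CPM over the libraries, with TO 2d 4h highest. Kcnma1, the large potassium channel, was lower than in stromal cells, with 4 UMIs against 45.3 CPM, although Kcnmb1, its regulatory subunit, was higher at 39 against 4.42.

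Basement membrane genes lay above stromal levels in part of their list. Of 20 basement membrane genes measured, 8 were higher than in stromal cells and none lower. Col4a1 and Col4a2, the chains of the network collagen of basement membranes, stood at 2549 CPM (2489 to 2609.7) and 1092 CPM (1053 to 1132) against 139.8 and 76.3 in stromal cells. Endothelial cells, which build the same membrane, had 1774 and 758 CPM, within 4-fold. Col18a1 stood at 940.5, 26.3 and 559 CPM in pericytes, stromal and endothelial cells, and Itga1, an integrin that binds collagen, at 565, 28.5 and 225. Itga7, a laminin receptor of muscle, was higher than in both, at 62.2 against 1.14 and 0.779. Hspg2 and Nid2 were lower than in endothelial cells, at 108 and 21 against 437 and 101 CPM.

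Interstitial matrix lay between the comparators. Of 25 genes measured against stromal cells, 1 was higher and 8 were lower, and 19 of 24 were higher than in endothelial cells. Col1a1, the main collagen of bone and scar, stood at 5095 CPM (5011 to 5181) against 27742 in stromal and 156 CPM in endothelial cells. By library it reached 2178, 2291, 4193, 6237 and 8124 CPM, all below the lowest stromal library at 22684. Col1a1 was found in 55.6% of B cells as well. Thinned to 2000 UMIs, the expected shares were 89.5% in the members and 26.5% in B cells. Lum, Postn, Dcn, Lox and Thbs2 were lower as well, with Lum at 360.5 against 1463. Mgp, an inhibitor of calcification, was the gene that went the other way, at 5433 CPM (5346 to 5522) against 268 and 172, and reached 4196, 5307, 3969.7, 6179 and 5311 CPM by library. Col6a1, Col6a2 and Col6a3 stood at 981 to 1243 CPM, within 4-fold of stromal cells. Thbs1, the matrix protein that the study followed in vesicles, stood at 623 CPM (593 to 653) against 349 and 73.5 CPM.

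Among genes of matrix turnover, 3 of 19 measured were higher than in stromal cells and 1 was lower. Timp3 and Timp4, inhibitors of metalloproteinases, stood at 370.4 and 25.8 against 70 and 1.5 CPM, and the protease gene Adamts4 at 117 against 18.9. Mmp2 was the lower gene, at 63.7 against 278. Mmp13, the collagenase of callus, was uneven over the libraries, from 0 to 1172 CPM, and 87.2% of its UMIs came from 3 members.

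Of signals that act on the endothelium, 2 of 17 ligand genes measured were higher than in stromal cells and 2 lower, whereas against endothelial cells 3 of 21 were higher and 7 lower. Angpt2, which loosens the contact of endothelium and mural cells, stood at 96.1 CPM (84.8 to 109) against 3.5 in stromal and 50 CPM in endothelial cells, and Pgf, a ligand of Flt1, at 85.8 against 16.7 and 29.2. Vegfa, the main growth factor of endothelium, stood at 33.9 CPM against 116 in stromal cells, within 4-fold. Pdgfc and Pdgfd were the lower pair, at 6.26 and 5.89 against 94.3 and 58.9. Pdgfb, the ligand that recruits pericytes, had 18 UMIs in the members and stood at 68.7 CPM in endothelial cells. Of 18 receptor genes measured against endothelial cells, 3 were higher (Notch3, S1pr3 and S1pr2) and 7 lower, among them Kdr, Tek and Tie1 with 2, 2 and 4 UMIs in the members. Flt1, a receptor that binds Vegfa and Pgf, was found in the members at 79.9 CPM (69.6 to 91.3), against 2.78 in stromal cells and 1203 in endothelial cells.

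Of 15 measured factors that support marrow cells, 2 (Il34 and Nes) were higher than in stromal cells and 2 (Il34 and Il7) higher than in endothelial cells, and Spp1 was lower than in stromal cells. Il34, a ligand of the macrophage receptor Csf1r, stood at 134 CPM (120.3 to 148) against 4.71 and 6.1 CPM. Lpl, a lipase from the marker list of marrow reticular and adipocyte cells, stood at 161 against 14.1 and 15.2. Kitlg, the stem cell factor, stood at 139.6, 82.7 and 340.1 CPM in pericytes, stromal and endothelial cells, within 4-fold of both. Nes, which codes for the filament protein nestin, stood at 91, 12.9 and 60.2.

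Cxcl12, the chemokine that holds blood progenitors in the marrow, was not shared by the members. Of its 909 UMIs, 886 lay in 4 cells with 10 or more UMIs, namely 1 with 620 UMIs from TO 2d 0h, 1 from TO 4d 24h and a pair from TOE 2d 24h. The limit of 10 was set after the values had been seen. Those 4 cells differed in other genes too: Mgp stood at 277 CPM against 5777 in the other 80, and Ndufa4l2, Higd1b and Des were at 0 UMIs. Of the Mgp UMIs, 46 lay in the cell with 23 Cxcl12 UMIs, and the others held 1, 0 and 0. Lum stood at 2084 against 246 CPM, Igf1 at 1425 against 40.9 and Spp1, which codes for osteopontin, at 1713 against 72.7. Lepr, a receptor of marrow stromal cells, had 7 UMIs in the 4 cells and 3 in the 80. Notch3 was present in them at 153 against 399 CPM. The other markers of the label, Igfbp7, Thy1, Col4a1, Mgp and Acta2, had 210, 137, 115, 47 and 14 UMIs in the 4 cells together. They were uneven among the 4: 13 of the 14 Acta2 UMIs lay in 1 cell of TOE 2d 24h. The cell of TO 4d 24h held 0 UMIs of Col4a1, Mgp and Acta2. Without the 4 cells, Cxcl12 stood at 9.03 CPM in place of 335, and the summed niche factors of TO 2d 0h at 995 in place of 5054 CPM.

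The members varied widely among themselves. Summed per cell, the contractile list ran from 1286 to 51872 CPM with a median of 8598 and quartiles of 4767 and 13237. The mural list without Rgs5 and Pdgfrb ran from 1220.4 to 14627, with a median of 4878. The sum of Col1a1, Col1a2 and Col3a1 ran from 596 to 34025, with a median of 7354. Each measure thus covered a wide range between cells of 1 rule.

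Contractile and mural levels did not move together over the 84 cells (Pearson r -0.03, Spearman rho -0.04). Mural levels were lower where collagen levels were higher (r -0.36, rho -0.46), and higher where basement membrane levels were higher (r 0.50, rho 0.54). The cells share libraries and differ in depth, and mural levels were lower in cells of more UMIs (r -0.36) while collagen levels were higher in them (r 0.29), so these values are descriptions with no p.

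**Figure D3:**
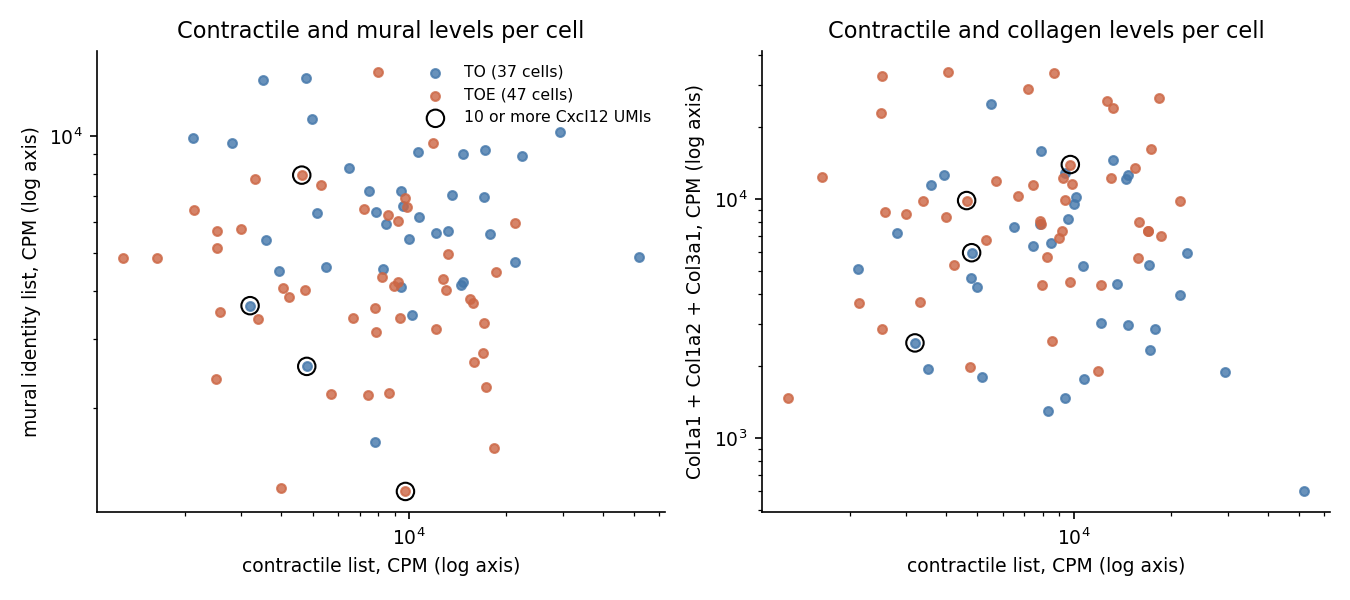
Each point is 1 of the 84 members. The x axis gives the contractile list in CPM of that cell, and the y axis the mural list without Rgs5 and Pdgfrb (left) or the sum of Col1a1, Col1a2 and Col3a1 (right), all on log axes. The points form no separate groups along the contractile axis, which runs from 1286 to 51872 CPM, and rings mark the 4 cells with 10 or more Cxcl12 UMIs.

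Myh11 was used to look for smooth muscle cells among the members, and by raw UMIs it gave no clean split: 29 cells had 5 or more UMIs, 27 had 1 to 4 and 28 had 0. For their depth, 2 cells of TO 2d 0h stood out, with 32 Myh11 UMIs of 8386 and 37 of 12704. They had the 2 highest contractile levels, 51872 and 29440 CPM, and 0 Kcnj8 UMIs each. The 29 cells stood at 1076 CPM of Acta2 and 3579 of Tagln, against 586 and 2054 in the 28 cells. Pericyte genes were found on both sides. Abcc9 stood at 277 CPM in the 29 and 339 in the 28, and Kcnj8 at 45.1 and 96.5. Notch3 stood at 475 and 245 CPM. Of the 20 members in TO 4d 4h, 12 belonged to the 29, and of the 12 in TOE 4d 4h, 1 did. The median depth was 34999 UMIs in the 29 and 28443.5 in the 28.

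Immediate-early genes, such as Fos, which cells switch on within minutes of a stimulus or of handling, differed between libraries. Summed over the 28 genes of the list, the members reached 22664, 11129, 7508, 18125 and 8056 CPM. TO 2d 0h and TOE 2d 24h thus lay above the 3 libraries of 4 h. Stromal cells gave 15111, 9527, 9650.1, 15603 and 7716 CPM and endothelial cells 11289, 10987, 9125, 12446 and 9192, in the same order of libraries. In all 3 cell groups the 4 h libraries were the lower of these 5, and with 2 libraries against 3 no test of the hour was made. By the day named in the label, both libraries of other hours belonged to day 2 and 2 of the 3 at 4 h to day 4. TOE 2d 24h was taken on day 3 after injury, per the paper. Hour and day thus cannot be fully told apart. Both day 4 libraries of 24 h held under 5 members and are left out of these sums. Per cell, the TOE 4d 24h members stood at 2417, 828 and 751 CPM of the list. The TO 4d 24h members stood at 36249 and 4155 CPM, the first of them Cxcl12-rich. In TO 2d 0h the sum without its Cxcl12-rich cell was 16309 CPM. Against stromal cells 0 of 28 genes were higher or lower, and against endothelial cells 1 was higher. Most genes at large were not counted as higher or lower either.

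Inflammatory mediators past 4-fold of the comparators were counted beside the shares over all genes. Those shares were 2.26% higher and 2.02% lower than in stromal cells, and 4.5% higher and 7.11% lower than in endothelial cells. Of 21 genes measured against stromal cells, none was higher and 2 were lower: Ptgs2, the inducible enzyme of prostaglandin synthesis, at 67.8 against 347 CPM, and Tnfaip6 at 17.7 against 386. Of 19 genes measured against endothelial cells, 2 were higher and 1 was lower. Il6 and Osmr, a cytokine and a cytokine receptor, were higher than in endothelial cells, at 101 and 194 against 24.5 and 42.3 CPM. Cxcl2, a neutrophil chemokine, was lower than in endothelial cells, at 42.3 against 207. Cxcl1, a related chemokine, stood at 1078 CPM (1039 to 1118) and ran from 131 to 2425 CPM over the libraries, with TO 2d 4h lowest.

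Genes of the cell cycle were not past 4-fold of either comparator in any of 17 cases, and most genes at large were not either. Their sum in the members was 732, 399, 2341, 1549 and 951 CPM by library, with TO 4d 4h highest, whereas stromal libraries ran from 785 to 1080.2 CPM. Mki67, a marker of cycling cells, was found in 59 of 84 members, and 39 had 3 or more UMIs. It was found in 40.2% of B cells as well, many of which cycle. Cell cycle levels were higher in members of more UMIs (Spearman rho 0.43 over 84 cells, with no p).

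**Figure D4:**
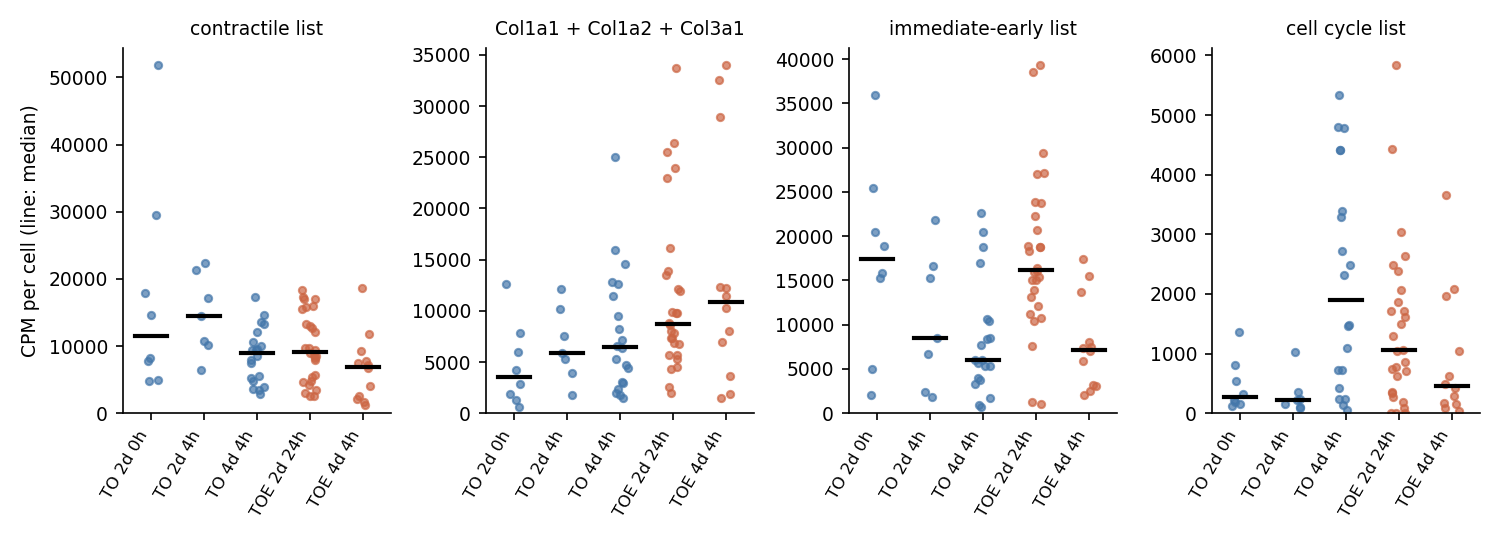
CPM per cell of the contractile list, of Col1a1, Col1a2 and Col3a1 together, of the immediate-early list and of the cell cycle list, for the members of the 5 libraries with 5 or more. Points are cells and lines are medians. For the immediate-early list the medians are 17364 CPM in TO 2d 0h, 16197 in TOE 2d 24h and 6005 to 8546 in the 4 h libraries.

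TOE could be set beside TO within the members only at 4d 4h, where both libraries held 5 or more, 20 in TO and 12 in TOE. Their median depths were 34806.5 and 29211 UMIs. With 1 library per condition there was no test, and each value compares these libraries, not the treatments. The intervals of ratios cover the counting of UMIs only, whereas the cells themselves differed far more. Of 7097 genes with at least 20 UMIs over the pair, 298 were more than 2-fold higher in TOE (4.2%) and 664 more than 2-fold lower (9.36%), and the median log2 ratio of all was -0.05. By direction alone, 3785 of the 7097 were lower in TOE and 3312 higher, which is the background for the direction counts by list below.

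Contractile genes were lower in the TOE members. All 16 genes of the list that were measured stood below 0 on the log2 scale, 5 of them past 2-fold, with a median of -0.64 and quartiles of -1.14 to -0.28. The list summed to 9138 CPM in TO and 6354 in TOE in the members, 3487 and 2517 in stromal cells, and 452 and 480 in endothelial cells, so that stromal cells were lower in TOE in a like proportion. In TO and TOE, Myh11 stood at 263 and 74.8 CPM, a ratio of 0.284 (0.179 to 0.433), and was found in 19 of 20 TO and 7 of 12 TOE cells. With the cells thinned to 10000 UMIs the expected shares were 79.8% and 34.5%. Per cell it ran from 0 to 874 CPM in TO with a median of 187, and from 0 to 1075 in TOE with a median of 26.9, so that the cells overlapped. Des stood at 443 and 114 CPM, a ratio of 0.257 (0.178 to 0.36), and was found in 17 of 20 TO and 3 of 12 TOE cells. Acta2 stood at 427 and 257 CPM, a ratio of 0.602 (0.468 to 0.768), and Tagln at 2286 and 1564 CPM, a ratio of 0.684 (0.619 to 0.756). The lower levels thus ran through the list and the ratios were lowest in Des and Myh11 among these 4.

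Genes of vessel tone were lower as well, 19 of 24, 5 past 2-fold, with a median of -0.42 and quartiles of -0.80 to -0.09. The list summed to 7754 CPM in TO and 5968 in TOE in the members, 1486 and 1489 in stromal cells, and 1562 and 1689 in endothelial cells. Prkg1 stood at 1525 and 1019.6 CPM, a ratio of 0.668 (0.59 to 0.756). Of 20 mural identity genes, 13 were lower, 6 of these past 2-fold, and 7 were higher, none of these past 2-fold. Their median was -0.25, with quartiles of -1.08 to 0.08. Notch3 stood at 594 and 643 CPM, a ratio of 1.08 (0.914 to 1.28), Abcc9 at 523 and 475 CPM, a ratio of 0.908 (0.749 to 1.1), and Heyl at 157 and 236 CPM, a ratio of 1.51 (1.11 to 2.03). Steap4, a metalloreductase of pericytes, stood at 148 and 35.9 CPM, a ratio of 0.242 (0.121 to 0.442), and Higd1b at 139 and 50.8 CPM, a ratio of 0.364 (0.204 to 0.614). Ebf1 stood at 2887 and 1435 CPM, a ratio of 0.497 (0.449 to 0.549). The other 4 B-cell markers summed to 114 CPM in TO and 44.9 in TOE.

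Interstitial matrix was higher in the TOE members, in 17 of 20 genes and past 2-fold in 4, with a median of 0.38 and quartiles of 0.19 to 0.88. The list summed to 22675 CPM in TO and 33732 in TOE in the members, 73645 and 76165 in stromal cells, and 745 and 1463 in endothelial cells. Col1a1 stood at 4193 and 8124 CPM, a ratio of 1.94 (1.84 to 2.04). Per cell it ran from 50.9 to 13686 CPM in TO and from 184 to 19806 in TOE, with medians of 2868 and 5063. The TOE cells with the most Col1a1 UMIs held 872 and 536, and the next held 297. In TO the highest counts were 593, 439 and 325. Lum stood at 63.3 and 371 CPM and Dcn, the proteoglycan decorin, at 25.9 and 221 CPM, but 71.6% of the Dcn UMIs in TOE came from 1 cell. Basement membrane genes did not share this, with a median of -0.04 that turned to 0.03 under median ratio scaling, and Col4a1 stood at 3255 and 3173 CPM, a ratio of 0.975 (0.905 to 1.05). Immediate-early genes had a median of 0.08 with none of 27 past 2-fold.

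Cell cycle genes had the lowest median of the 16 lists, at -1.31 with quartiles of -1.81 to -0.75. All 17 were lower in TOE, 10 of them past 2-fold. Mki67 stood at 554 and 135 CPM, a ratio of 0.243 (0.174 to 0.332), and was found in 17 of 20 TO and 9 of 12 TOE cells. Thinned to 10000 UMIs, the expected shares were 75.6% and 53.8%. Top2a, a topoisomerase of dividing cells, stood at 341 and 77.7 CPM, a ratio of 0.228 (0.146 to 0.343). The list summed to 2341 CPM in TO and 951 in TOE in the members, 785 and 871 in stromal cells, and 1176 and 943 in endothelial cells. The endothelial cells beside the members were thus lower in TOE as well and the stromal cells were not, and no difference between cell types was tested.

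**Figure D5:**
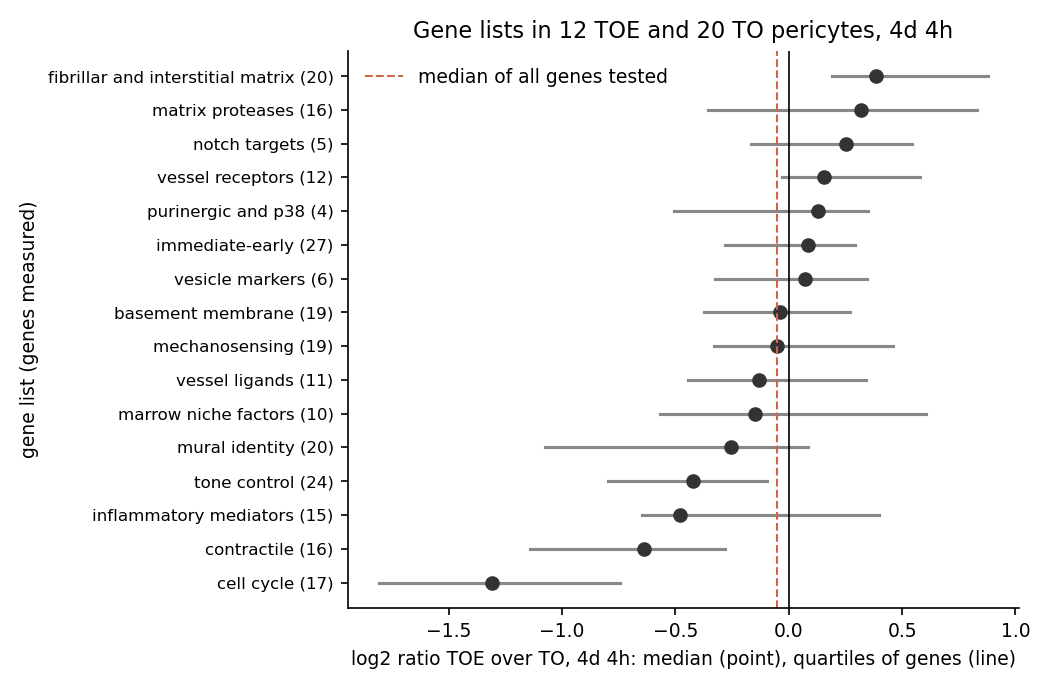
Median log2 ratio of TOE over TO at 4d 4h for each of 16 gene lists (points), with the quartiles of the genes in the list (lines) and the number of genes measured in brackets. The cell cycle list is lowest at -1.31 and the fibrillar and interstitial matrix list highest at 0.38; the dashed line marks all 7097 genes at -0.05.

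Single genes with the largest ratios rested on few cells. Cxcl14, a chemokine, had 0 UMIs in TO and stood at 83.7 CPM in TOE, with 75% of its UMIs in 1 cell. In stromal cells it stood at 100.2 and 49 CPM, the opposite direction. Npy, which codes for a neuropeptide that constricts vessels, stood at 4.31 and 197 CPM with 68.2% in 1 cell, and Fcrla, a B-cell gene, Ccbe1 and Ndrg1 followed. In stromal cells Npy stood at 0.328 and 11.1 CPM, Ndrg1 at 32.8 and 72.8 and Fcrla at 9.85 and 11.9, higher in TOE as in the members. Ccbe1 went the other way there, at 566 and 310 CPM. The genes lower in TOE were found in more cells. Lrrc4c was found in 13 of 20 TO cells at 101 CPM and Nox4, an oxidase that makes hydrogen peroxide, in 12 of 20 at 70.5, and both were at 0 UMIs in TOE. Stromal cells of the same libraries held Nox4 at 46.6 CPM in TO and 15 in TOE, lower in TOE as in the members, and endothelial cells held it at 109 and 89.6 CPM. Dgkb, Dync1i1 and the histone gene H4f3, which has near-identical copies and is uncertain for that reason, completed the list.

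Cells near the limits of the rule were compared with the members. Just inside were 7 cells with 2 Rgs5 UMIs and just outside were 21 cells with 1, which met all other terms. Summed, the 21 cells stood at 42 CPM of Notch3 and 15354 of Col1a1, against 246 and 4949 in the 7 cells and 395 and 5078 in the 74 members with 5 or more. Other genes placed the 7 cells nearer to those outside: Mgp stood at 1250.3, 1445 and 5895 CPM in the same order, Kcnj8 at 14.6, 5.85 and 77.9, and Cxcl12 at 812, 1445 and 273. Of the 7 cells, 2 were among the 4 Cxcl12-rich cells. Another 14 cells were outside only by 2 or more endothelial UMIs, of which they had a median of 28.5, and 7 only by lacking Pdgfrb.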

How the data were processed

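Cells of tibial osteotomy tissue were profiled by 10x Genomics sequencing. For each barcode and each of 41801 genes, the authors deposited raw counts of UMIs, without normalization, made with Cell Ranger 9.0.0 per the labels, whose processing notes list the builds mRatBN7.2 and GRCh38. Members were found by the UMI limits given above. Pdgfra+ stromal cells had at least 2 Pdgfra UMIs, 1 Pdgfrb UMI and no Rgs5, and endothelial cells at least 1 Pecam1 and 1 Cdh5 UMI and neither mural gene. B cells had at least 2 UMIs each of Cd79a and Cd79b. Counts were summed and ratios taken with 0.5 UMI added, over genes with at least 50 UMIs. The members, gene lists and rules were chosen with earlier results of these data known. Named genes were the markers, the listed genes, and by ratio the 15 highest and 10 lowest per comparator and 5 each way in the pair, there found in at least 3 cells, of which 1 is not reported here; the genes of the Cxcl12-rich cells were chosen after their values were seen. Doublets were scored with Scrublet in scanpy 1.11.5 (expected rate 8%): 1 member and 3.33% of all cells reached 0.25, and none was removed. All intervals are 95% intervals of counting error alone. Thinned shares are expected values over cells that reach the stated UMIs. Alternatives concerned cell filters, UMI limits, doublets, leukocyte UMIs, denominators, gene minimum, prior, scale and libraries left out. The step that counted genes as higher or lower was tested on simulated counts, which had no variation between cells or libraries beyond counting. The permutation test and the interval of ratios were checked on simple cases, and no other step was simulated. Tools were python 3.11.15, numpy 2.4.6, scipy 1.17.1 and pandas 2.3.3.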

Additional observations from a re-analysis of the deposited data

How the results depend on the processing

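Of the values recomputed under alternatives, 290 were counted as unchanged and 13 as moved, while 8 turned to the opposite sign. Unchanged meant within the interval for shares, ratios and list medians, and within 1.5 times for counts of genes. For levels among the members it meant within the quartiles of the cells. For the contrasts by arm and hour it meant the same sign and no p past the threshold, whatever the size. The medians of the Notch target and the purinergic and p38 lists, of 5 and 4 genes, had no bounded interval and could not count as moved. Among the 290, another 10 values, medians of 7 lists, changed sign too. Most that moved did so when members with any Ptprc or Cd79a UMI were removed: the share was then 0.00689% in TO 2d 0h, 0.0393% in TO 4d 4h, 0% in TOE 2d 4h, 0.0139% in TOE 2d 24h, 0.0216% in TOE 4d 4h and, for TOE 4d 24h, 0%, and the ratio of TOE over TO was 0 at 2d 4h (interval 0 to 0.768) and 0 at 4d 24h. With stromal cells as the denominator, an alternative chosen after seeing the data, the ratio at 4d 4h was 1.45. Without the members with leukocyte UMIs, the difference by arm was -1.32 in log2 (exact permutation test, two-sided, p = 0.171), the opposite direction. That filter kept 6 of 7 members in TO 2d 4h and 2 of 28 in TOE 2d 24h. Leaving out each library in turn gave -0.39 to 0.71 for the arm, below 0 without TO 4d 24h, TOE 2d 24h or TOE 4d 4h, and -0.0656 to 1.09 for the hour, below 0 without TO 4d 4h or TO 4d 24h; no p passed the threshold. Without a gene minimum, 1530 genes were higher than in stromal cells in place of 270 and 1838 higher than in endothelial cells in place of 523, through genes of few UMIs. Leaving out libraries gave 226 to 278 genes higher than in stromal cells and 458 to 519 higher than in endothelial cells. At 4d 4h, the median ratio of all genes was 0.0178 under median ratio scaling in place of -0.05; the medians of the basement membrane and mechanosensing lists turned to 0.03 and 0.02, and those of basement membrane, vessel ligand, niche, inflammatory, vesicle, and purinergic and p38 genes changed sign with another UMI minimum, while those of contractile, tone, interstitial matrix and cell cycle genes did not. Without the 4 Cxcl12-rich cells, an alternative chosen after seeing the data, the median contractile level was 8794 CPM. The counts of members limit all shares, and 3 libraries held under 5. Over the 3 pairs of matched day and hour, the pairing gave -0.35 for the arm (exact permutation test over signs, p = 0.5); the labels number no replicates, so no other pairing was used.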

Other observations

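Vesicle genes, which the study measured in cells of the site, were measured in the members as well. Cd63, Cd81, Cd9, Flot1, Flot2, Tsg101 and Rab27a, genes of small vesicle membranes and release, were within 4-fold of stromal and of endothelial cells in 7 of 7 cases. So were most genes: over all, 2.26% were higher and 2.02% lower than in stromal cells, and 4.5% and 7.11% than in endothelial cells. Cd63 stood at 1428 CPM (1383 to 1473), 1725 and 428 CPM in pericytes, stromal and endothelial cells, and by library at 2129.6, 566, 940.3, 1758 and 1238 CPM in the order TO 2d 0h, TO 2d 4h, TO 4d 4h, TOE 2d 24h and TOE 4d 4h. The summed list was 3279, 1617, 1714, 2726 and 2123 CPM, and at 4d 4h the median log2 ratio of TOE over TO was 0.07 over 6 genes with none past 2-fold, and -0.05 with no UMI minimum.

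Of genes of ATP sensing and p38 signaling, 0 of 8 measured were past 4-fold of stromal cells. Against endothelial cells 2 of 12 were lower and none was higher, beside 7.11% and 4.5% over all genes. P2rx7, an ATP-gated channel, had 4 UMIs in all and was lower than in endothelial cells (10.3 CPM). Those endothelial cells carried 3155 CPM of monocyte and macrophage markers, against 627 in the members. The part of other cells in the P2rx7 level was not tested. Mapk14, the main p38 kinase, stood at 76.6 CPM (66.5 to 87.7) against 55.9 in stromal and 106 in endothelial cells. Of 22 mechanosensing genes measured against stromal cells, 1 was higher and none lower, beside 2.26% and 2.02% over all genes. Against endothelial cells 3 of 21 were higher and 1 lower, beside 4.5% and 7.11%. Ajuba, a scaffold of the Hippo pathway, was higher than in both comparators, at 64.4 CPM (55.2 to 74.7) against 8.7 and 2.73 CPM. The channel genes Piezo1 and Piezo2 stood at 47.5 and 99.8 CPM, within 4-fold of both. Ccn2, a matrix protein gene that responds to tension, stood at 433 CPM (408 to 458) against 187 and 79.6, higher than in endothelial cells, and ran from 79.8 to 657 CPM over the libraries.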
